A study of Mus musculus with 12 samples.

Results

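The effect of conditional loss of Tbx4 on gene expression in the mouse lung was compared at postnatal day 14 (P14), in 3 lung RNA libraries labelled CKO (Tbx4 conditional knockout) and 3 labelled Control, 6 of the 12 libraries of the series. Control animals carried floxed Tbx4 alleles (Tbx4fl/fl). Not given in the sources used here are the Cre line that drives the deletion, the strain background, and whether Control animals carried a Cre. The other 6 libraries hold the same genotypes at P36, 3 a group, and were used to estimate the spread between libraries and to set P36 values beside P14 values. Of the 24421 genes in the count table, 15923 passed the expression filter and all of these were tested.

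The T-box transcription factor Tbx4 is made in mesenchyme of the developing lung, the tissue from which fibroblasts, smooth muscle and pericytes of the lung arise. It acts with its relative Tbx5 in branching of the early lung, and human variants in TBX4 are linked to pulmonary hypertension and to disorders of lung development. At P14 the mouse lung is still dividing its air spaces into alveoli, a process in which myofibroblasts lay down elastic fibres at the tips of new septa while resident leukocytes continue to enter the tissue.

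The 6 P14 libraries held 17806206 to 21368801 counts. CKO replicates 2 and 3 share a library number in the labels. Their biological coefficient of variation was 3.89%, against 11.7% and 12.2% for the other CKO pairs and 10.6% to 23.1% for the Control pairs, and sampling noise alone did not account for the gap between their counts (chi-square per gene 3.73 on average, against 13.1 and 15.1 for the other CKO pairs). Whether they come from 1 animal is not given, so results are reported from a pair of fits. The 12-library fit counted them apart, as the labels list them, and the summed fit added up the libraries of a shared number, which leaves 2 CKO and 3 Control libraries at P14. Nothing in the labels states that libraries come from separate animals, so p-values measure the spread between these libraries. "Rose" and "fell" below mean an adjusted p under 0.05 in the 12-library fit (edgeR's quasi-likelihood test, Benjamini-Hochberg), and "in both fits" means that the gene passed in the summed fit as well. Levels are given in CPM (counts scaled to TMM-adjusted library totals), and log2 fold changes (CKO minus Control) carry their standard error, and mean CPM values their standard deviation, after ±.

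Tbx4 itself (chr11:85890063-85916097, plus strand) was present in all 6 libraries. It measured 157, 110 and 134 CPM in Control replicates 1, 2 and 3 and 129, 123 and 111 CPM in CKO replicates 1, 2 and 3. The groups overlapped, and the log2 fold change was -0.15 ± 0.14 (adjusted p = 0.626). A count over the whole gene does not show whether a deleted stretch is missing from the message, so the targeted gene does not check the genotype labels here. Tbx2, its neighbour on the chromosome and also a T-box factor of lung mesenchyme, lay at 333, 314 and 325 CPM in Control and at 257, 280 and 264 CPM in CKO, lower in 3 of 3 libraries but not past the test (-0.28, adjusted p = 0.187). Tbx5 measured 159, 151 and 156 CPM against 146, 138 and 140 CPM (-0.14, adjusted p = 0.624), and Tbx3 had a log2 fold change of -0.01. Of the 11 tested members of the T-box family only Tbx21, the factor of type 1 lymphocytes, rose.

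In all, 531 genes rose in CKO, 3.33% of those tested, and 177 fell, 1.11%. With libraries of a shared number summed, 101 rose (0.629% of 16068) and 27 fell (0.168%), and all 128 of these (0.797%) were among the 708 of the 12-library fit. Most differences were moderate: the median log2 fold change of the genes that rose was 0.68, and 137 of the 531 rose at least 2-fold, while 73 of the 177 that fell did so at least 2-fold. In 528 of the 531 the 3 CKO libraries all lay above the 3 Control libraries, an ordering that 13.1% of all tested genes had. The calls came from these same libraries, so this ordering was likely beforehand and is no support for them. The counts depend on single libraries: 167 of the rises and 42 of the falls were called again in every one of the 6 fits that left out 1 P14 library, and without CKO replicate 2 or 3 the 12-library fit called 200 and 53 or 184 and 47, and without Control replicate 2 or 3 it called 252 and 112 or 294 and 85. Most lists moved with them: without CKO replicate 2, CKO replicate 3 or Control replicate 2 5, 5 and 7 class II genes rose, against 9 with all libraries. The same fits called 1, 1 and 1 class I genes against 4, 2, 3 and 3 monocyte genes against 7, and 4, 4 and 4 interstitial macrophage genes against 8. They called 3, 2 and 3 Toll-like and other pattern receptors against 7, 0, 0 and 1 TGF-beta genes against 5, and 1, 0 and 1 elastic fibre genes against 4. In the summed fit, leaving out 1 Control library left 11, 2 or 2 genes (without replicate 1, 2 or 3).

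Genes of antigen presentation had some of the highest shares of rises. MHC class II molecules are the cell surface proteins with which dendritic cells, macrophages and B cells show peptides to helper T cells. Their alpha and beta chains assemble with the invariant chain Cd74, exchange it for peptide with the help of H2-DM, and are transcribed under the control of the coactivator Ciita, which docks on an RFX complex bound to the X box and on NF-Y bound to an inverted CCAAT box in each class II promoter. To show this element in the genes that moved, the promoters of the list (250 bases before to 50 bases after the start, RefSeq, GRCm38.p6, the mm10 assembly) were searched on both strands for the X box letters AGNAAC and, after any 2 bases, ATG, followed by ATTGG on the same strand with starts 25 to 45 bases apart. The letters were chosen with these promoters in view. Of the 16 genes of the list 12 had a promoter in the table and 4 of these held both, H2-Eb1, H2-Eb2, H2-Ob and H2-DMb1, which were also the only 4 of the 11809 promoters of tested genes to do so (0.0339%). The matches are printed 5′ to 3′ on the gene's strand with the X letters and ATTGG in capitals, followed by H2-Aa and H2-DMb2 as examples of the 5 members in which only ATTGG was found (H2-Oa, H2-DMa and Rfxank are the others). ATTGG alone, on either strand, was in 42.0% of all promoters, while ATTGG of the list members was sought on the gene's strand only.
H2-Eb1 (chr17:34305769-34305820, plus): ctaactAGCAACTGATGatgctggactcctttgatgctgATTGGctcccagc
H2-Ob (chr17:34238811-34238860, plus): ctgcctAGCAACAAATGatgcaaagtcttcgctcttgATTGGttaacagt
H2-DMb1 (chr17:34153090-34153142, plus): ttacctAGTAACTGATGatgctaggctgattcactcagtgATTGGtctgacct
H2-Eb2 (chr17:34325536-34325587, plus): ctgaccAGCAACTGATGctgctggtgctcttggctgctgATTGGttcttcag
H2-Aa (chr17:34287859-34287911, minus): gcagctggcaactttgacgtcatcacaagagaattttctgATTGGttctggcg
H2-DMb2 (chr17:34145119-34145171, plus): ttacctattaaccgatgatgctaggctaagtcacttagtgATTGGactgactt
H2-Eb1, H2-Ob and H2-DMb1 rose, H2-Eb2 did not, and H2-Aa rose without a match to the X letters. The distance between the starts of the X letters and of ATTGG was 33 bases in H2-Eb1 and H2-Eb2, 31 in H2-Ob and 34 in H2-DMb1. A match describes the letters of the window and is no evidence of binding.

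Of the 16 class II list members, all tested, 9 rose and none fell, 5 of them in both fits, where 3.33% of all genes rose. Their median log2 fold change was 0.66. In RNA from whole tissue, more cells of a type and more RNA per cell cannot be told apart. Among the peptide-binding chains, H2-Aa, the alpha chain of I-A, measured 134, 101 and 132 CPM in Control and 245, 340 and 333 CPM in CKO. Its means were 122 ± 18.6 and 306 ± 53.3 CPM (n = 3 each), a log2 fold change of 1.32 ± 0.17 (adjusted p = 0.00234, summed 0.0359). H2-Ab1, its partner chain, measured 64.4, 50.6 and 64.4 CPM against 119, 187 and 177 CPM (1.43 ± 0.19), and H2-Eb1, the I-E beta chain, 17.6, 14.1 and 17.1 against 29.8, 46.6 and 44.4 CPM (1.31 ± 0.18), both in both fits. In each of these genes CKO replicate 1 lay between the Control libraries and the other CKO libraries. H2-Ob, a chain of the H2-O inhibitor of peptide loading, rose by 0.46 ± 0.09 in the 12-library fit alone, from 8.0, 8.48 and 9.04 to 12.3, 11.1 and 11.7 CPM. H2-Eb2 stayed at 0.573 to 1.07 CPM in all 6 libraries (-0.32, adjusted p = 0.639).

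The genes that load and control class II moved as follows. H2-DMa, a chain of the peptide exchanger, went from 9.09, 9.03 and 9.41 CPM to 15.1, 21.7 and 19.5 CPM (1.04 ± 0.15, in both fits). Its partner genes H2-DMb1 (0.87 ± 0.16), the invariant chain Cd74 (0.96 ± 0.17) and Ctss, the cathepsin that trims the invariant chain (0.85 ± 0.16), rose in the 12-library fit but not in the summed fit, where their adjusted p lay at 0.0965, 0.0965 and 0.119. Ciita, the coactivator, was steady in Control at 16.2, 16.3 and 16.4 CPM and stood at 25.2, 41.3 and 40.5 CPM in CKO (1.13 ± 0.16, adjusted p = 0.00317, summed 0.0462). The subunits of the RFX complex had values near 0, with log2 fold changes of 0.01 for Rfx5, -0.00 for Rfxap and -0.00 for Rfxank and groups that overlapped. Class I presentation, which shows peptides to cytotoxic T cells, had 4 of 18 tested members higher and 1 in both fits. This was Psmb9, an immunoproteasome subunit, at 4.93, 5.08 and 5.89 CPM in Control and 8.67, 9.65 and 9.70 CPM in CKO (0.82 ± 0.10). The heavy chains H2-K1 (0.64 ± 0.16), H2-D1 (0.48 ± 0.11) and H2-T23 (0.94 ± 0.24) rose in the 12-library fit alone, and H2-K1 overlapped between the groups.

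**Figure D1:**
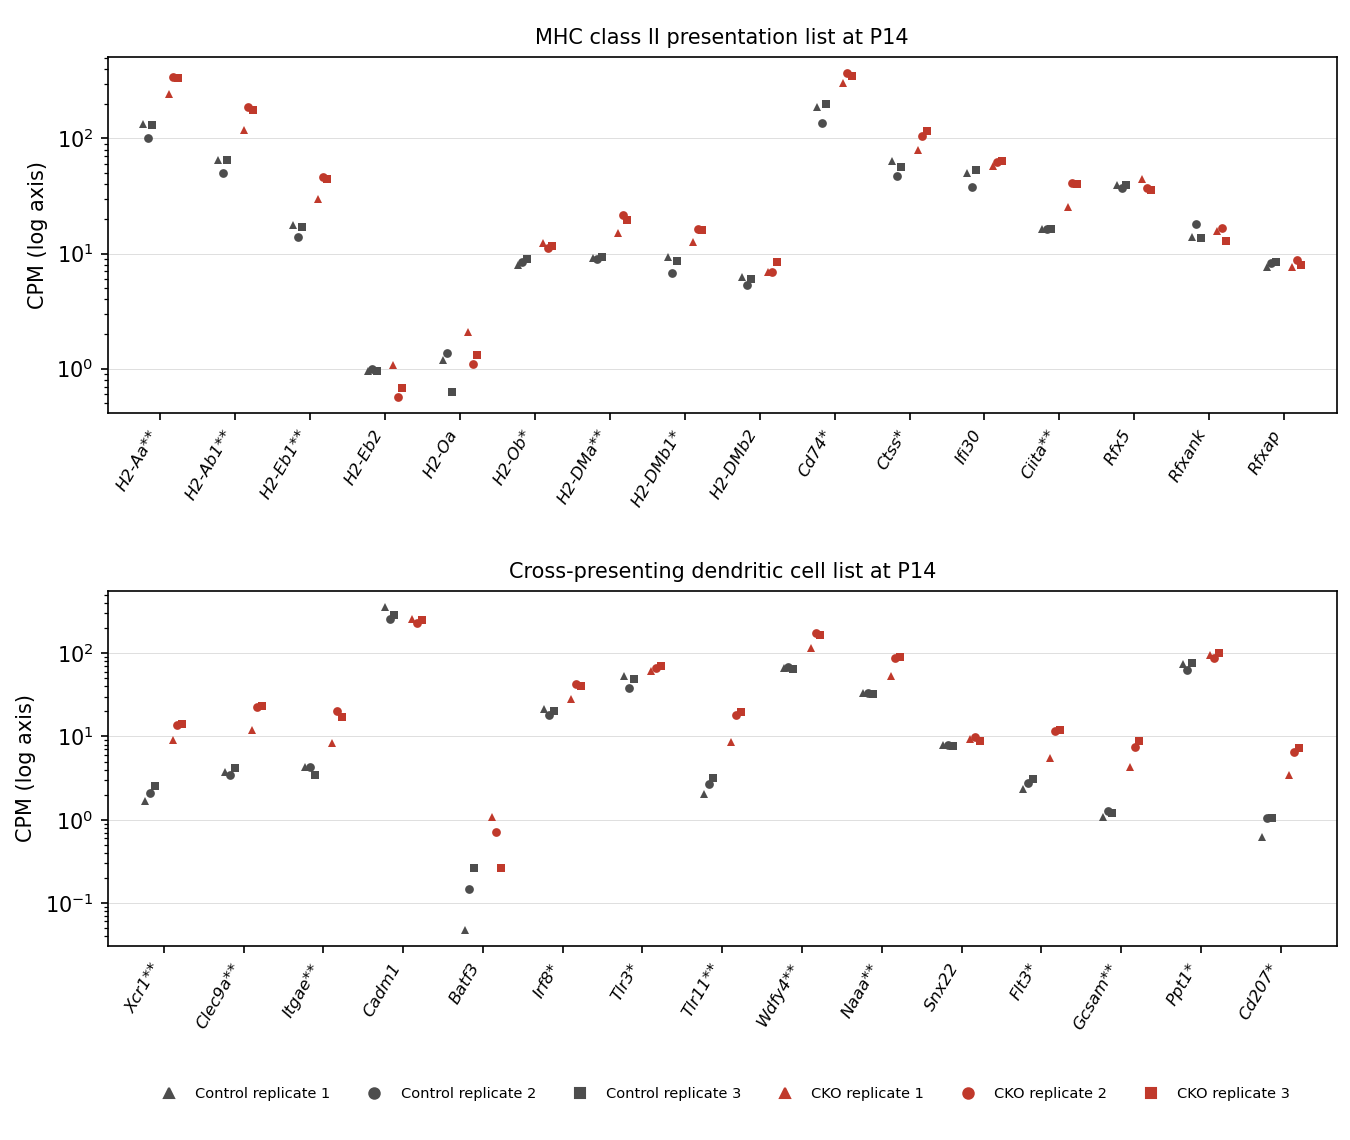
Level in CPM (log axis) of every tested member of the MHC class II list (above) and of the cross-presenting dendritic cell list (below) in each P14 library, Control in grey and CKO in red, with a symbol for each replicate. An asterisk marks a gene called in the 12-library fit and 2 asterisks a gene called in both fits: 9 and 12 members carry at least 1, and in H2-Aa, Clec9a and Xcr1 CKO replicate 1 (triangle) is the lowest of the red points.

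Markers of cross-presenting dendritic cells, the dendritic cells that take up dead cells and present their antigens to CD8+ T cells, showed the highest share of rises of any list. Of 15 members, all tested, 12 rose, 7 in both fits, and the median log2 fold change was 1.83. This list was chosen with earlier results of these data known. Xcr1, the chemokine receptor that defines these cells (chr9:123852315-123862029), measured 1.66, 2.12 and 2.58 CPM in Control and 8.95, 13.7 and 14.3 CPM in CKO (2.54 ± 0.22, adjusted p = 0.000255, summed 0.00939). Clec9a, their receptor for dead cells, measured 3.79, 3.40 and 4.21 against 11.8, 22.6 and 23.5 CPM (2.35 ± 0.23). The ranges of both genes lay far apart, and CKO replicate 1 was again nearest to Control. Gcsam measured 1.09, 1.28 and 1.21 CPM against 4.33, 7.55 and 8.71 CPM (2.52 ± 0.25), and Tlr11, which senses profilin of protozoa, 2.04, 2.71 and 3.15 against 8.67, 18.3 and 19.9 CPM (2.57 ± 0.33). Itgae, the CD103 integrin chain (1.93 ± 0.28), Naaa (1.24 ± 0.17) and Wdfy4, which these cells need for cross-presentation (1.18 ± 0.16), were the other members that passed in both fits.

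Irf8, the factor that specifies the lineage (0.90 ± 0.14), Flt3, the receptor of its growth factor (1.83 ± 0.31), Cd207 (2.66 ± 0.43), Tlr3 (0.48 ± 0.11) and Ppt1 (0.41 ± 0.08) rose in the 12-library fit alone. The ligand Flt3l rose there too, from 11, 11.5 and 9.62 CPM to 16.1, 22.5 and 19.1 CPM (0.84 ± 0.18). Batf3, the other lineage factor, had a median of 5 counts, and its values of 0.0474, 0.148 and 0.263 CPM in Control and 1.07, 0.717 and 0.261 CPM in CKO overlapped (adjusted p = 0.0835). Cadm1, which alveolar epithelium also expresses, was lower in 3 of 3 libraries without passing the test (-0.30, adjusted p = 0.144). With any 1 P14 library left out, 10 to 12 of the 15 members rose. Havcr2, the receptor TIM-3 of dendritic cells and T cells, is no member of the list and rose in both fits, from 2.60, 2.91 and 2.52 to 7.37, 9.70 and 11.4 CPM (1.82 ± 0.18).

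Other dendritic and myeloid markers moved in part. Of the 12 CD11b dendritic cell genes 4 rose, 2 in both fits: Itgax, the CD11c integrin chain (23.3, 17.9 and 18.8 against 33.6, 41.6 and 41.3 CPM, 0.96 ± 0.13), and Mgl2 (1.13 ± 0.14). The lineage factor Irf4 (0.70 ± 0.14) and Cd209a (1.36 ± 0.24) rose in the 12-library fit alone. Of the 12 tested genes of migratory dendritic cells Ccl22 alone rose, and Ccr7, the receptor that takes them to lymph nodes, had a log2 fold change of -0.17 (adjusted p = 0.685). None of the 9 tested plasmacytoid dendritic cell genes was called. Monocyte genes had 7 of 20 higher and 1 lower. Ccr2, the receptor with which monocytes leave the marrow and enter tissue, had the smallest p of all genes in both fits: 20.6, 21.3 and 20.9 CPM in Control and 56.9, 66.2 and 72.0 CPM in CKO, means of 21.0 ± 0.329 and 65.1 ± 7.62 CPM (1.63 ± 0.10, adjusted p = 2.17e-05, summed 0.00139). Ly6c2 (0.99 ± 0.25), Cx3cr1 (0.87 ± 0.21), Plac8 (0.69 ± 0.14), Itgam (0.54 ± 0.11) and Itgal (0.43 ± 0.07) rose in the 12-library fit alone.

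Of 21 tested interstitial macrophage genes 8 rose, among them Adgre1, the F4/80 antigen (0.89 ± 0.15), Mrc1, the mannose receptor (0.71 ± 0.12), and Gas6, a bridging ligand for dead cells (0.50 ± 0.10), with 2 in both fits, Ccr2 and Mgl2. Alveolar macrophage markers had 3 of 18 higher: Siglecf (0.62 ± 0.14), Chil3 (1.04 ± 0.22) and Mrc1, none in both fits. Natural killer and innate lymphoid genes had 7 of 23 higher, and 1 to 10 with 1 library left out (1 without CKO replicate 2 and 2 without CKO replicate 3 or Control replicate 2). Klrb1c, the NK1.1 antigen, and Il1rl1, the IL-33 receptor of group 2 innate lymphoid cells, passed in both fits, Il1rl1 at 6.91, 9.96 and 8.31 CPM in Control and 15.5, 19.7 and 22.6 CPM in CKO (1.2 ± 0.15). The cytotoxic protease Gzmb measured 0.0474, 0.0493 and 0.105 CPM in Control and 0.0563, 2.34 and 2.40 CPM in CKO, so that its rise (adjusted p = 0.0346, summed 0.172) rests on the libraries that share a number. Lymphocyte lists had fewer calls. Of 20 tested T cell genes Cd4 alone rose (0.71 ± 0.18), Cd3e had a log2 fold change of 0.46 (adjusted p = 0.19), and none of 17 tested B and plasma cell genes and none of 14 tested neutrophil genes was called. Ptprc, the CD45 antigen of all leukocytes, measured 127, 116 and 122 CPM in Control and 183, 168 and 179 CPM in CKO (0.54 ± 0.07, in both fits).

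CC chemokines are secreted proteins that direct leukocytes through CC receptors. Of 17 tested ligands 4 rose, and of 10 tested receptors 3. Ccl11 (eotaxin, chr11:82057832-82062955), which draws eosinophils and is also a marker of adventitial fibroblasts, measured 1.28, 2.96 and 2.94 CPM in Control and 16.7, 21.3 and 19.6 CPM in CKO. Its means of 2.39 ± 0.966 and 19.2 ± 2.33 CPM gave a log2 fold change of 3.01 ± 0.24 (adjusted p = 0.000223, summed 0.00939). No other ligand passed in both fits. Ccl22 (2.23, 2.86 and 3.15 against 5.06, 6.74 and 7.04 CPM, 1.2 ± 0.24) and Ccl6 (0.74 ± 0.19) rose in the 12-library fit alone, as did Ccl5, with a median of 8 counts and CKO replicate 1 at 0.394 CPM within the Control range of 0.142 to 0.421 CPM. Ccl2 and Ccl7, the ligands of Ccr2, lay at 0.105 to 0.788 CPM in all 6 libraries with groups that overlapped (log2 fold changes -0.09 and 0.27). Ccl12, another Ccr2 ligand, measured 0.789 to 1.52 CPM in Control and 1.46 to 2.35 CPM in CKO (adjusted p = 0.282). Among the remaining ligands Ccl27a (1.24, adjusted p = 0.054) and Ccl9 (0.74, adjusted p = 0.0963) were above Control in 3 of 3 libraries without passing, Ccl17, at 0.70 (adjusted p = 0.218), and Ccl19, at 0.44 (adjusted p = 0.382), likewise, and Ccl3, Ccl4, Ccl8, Ccl24, Ccl25 and Ccl28 overlapped between the groups (adjusted p 0.207 to 0.927). Of the receptors Ccr2, described above, rose in both fits and Ccr1 in the 12-library fit alone (0.90 ± 0.17). Eosinophil markers had 3 of 6 tested members higher, Siglecf, Cd300lf and Adora3, none in both fits. Without CKO replicate 2 or 3 or Control replicate 2 or 3, 0 members rose. Siglecf is also counted among the alveolar macrophage markers, and exons of Adora3 overlap those of Tmigd3 on the same strand. The eosinophil genes Ccr3, Epx, Prg2, Prg3 and Ear6 did not reach the expression filter in these lungs.

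**Figure D2:**
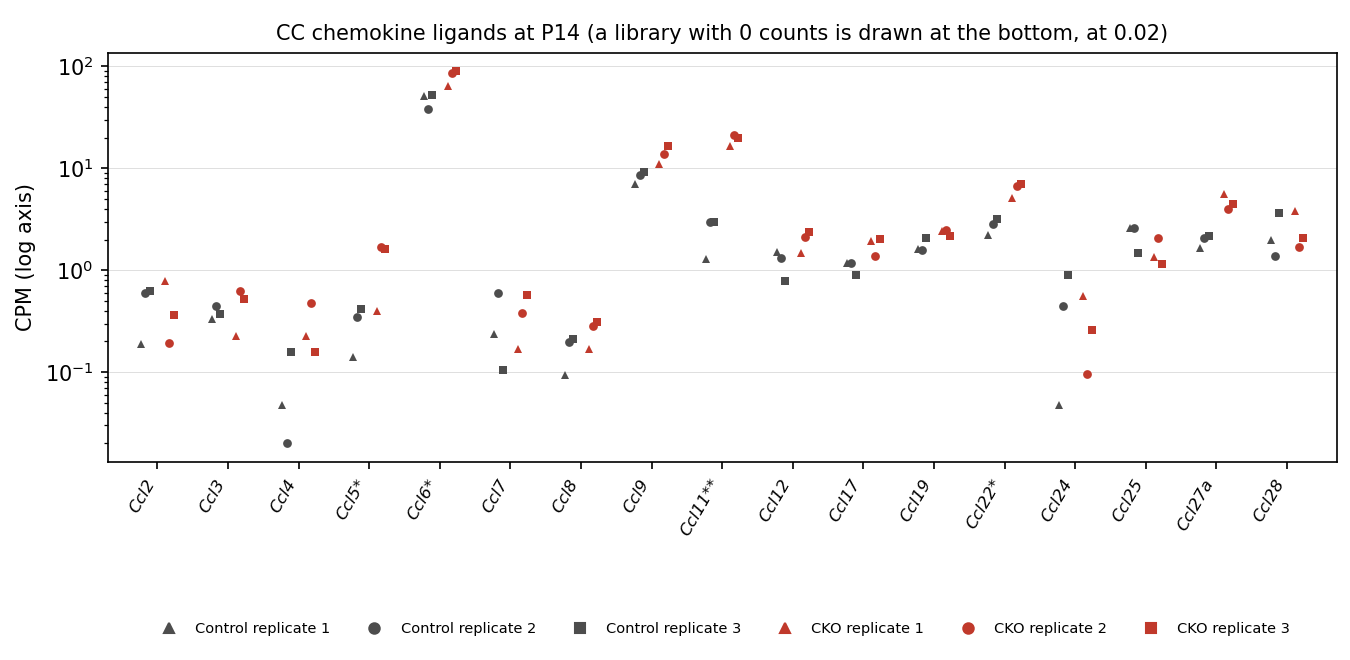
Level in CPM (log axis) of the 17 tested CC chemokine ligands in each P14 library, Control in grey and CKO in red, with a symbol for each replicate. An asterisk marks a call in the 12-library fit and 2 asterisks a call in both fits. Ccl11 is the only ligand with 2 asterisks, at 1.28 to 2.96 CPM in Control and 16.7 to 21.3 CPM in CKO.

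Complement, the cascade of plasma proteins that tags targets and recruits leukocytes, had 10 of 27 tested members higher, 1 in both fits and a median log2 fold change of 0.59. The calls were in the classical arm (5 of 8), the regulators (2 of 8) and the receptors (3 of 5), and none of the 6 alternative arm genes, C3 included, was called. C1s1, the protease of the C1 complex, measured 54.1, 59.0 and 66.5 CPM in Control and 110, 133 and 139 CPM in CKO (1.09 ± 0.10, adjusted p = 0.000381, summed 0.0118). Its partner protease C1ra (0.78 ± 0.16), C2 (1.38 ± 0.29), and the recognition chains C1qa (0.89 ± 0.20) and C1qc (0.92 ± 0.22) rose in the 12-library fit alone, and C1qb was at the threshold (adjusted p = 0.0503). The inhibitor Serping1, which blocks C1s and C1r (197, 165 and 219 against 292, 355 and 333 CPM, 0.75 ± 0.12) and the receptor C3ar1 (0.70 ± 0.12) rose as well. C3 measured 163, 153 and 196 CPM in Control and 207, 315 and 305 CPM in CKO (0.69, adjusted p = 0.115). Between 4 and 12 members rose with 1 library left out.

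Of 40 interferon-stimulated genes 7 rose, none in both fits. With 1 library left out 1 to 9 rose, and 1 rose without CKO replicate 2 or 3 or Control replicate 2. All 7 were GTPases induced by interferon gamma: Gbp2 (0.95 ± 0.18), Gbp3 (0.68 ± 0.17), Gbp5 (0.73 ± 0.13), Iigp1 (1.03 ± 0.19), Igtp (1.24 ± 0.25), Irgm1 (0.48 ± 0.09) and Tgtp2 (1.15 ± 0.25). Igtp measured 6.16, 5.62 and 7.05 CPM in Control and 8.67, 17.6 and 18 CPM in CKO, with CKO replicate 1 near Control. Ifit1, Isg15 and Irf7, best known from type I interferon, were not called, at 0.26 (adjusted p = 0.249), 0.42 (adjusted p = 0.444) and 0.35 (adjusted p = 0.198). Over the whole list of 40 genes 37 log2 fold changes were positive, with a median of 0.39. In 21 of the 40 the CKO libraries lay above Control without overlap, against 13.1% of all genes. Toll-like and other pattern receptors had 7 of 23 higher. Tlr11 passed in both fits, and Tlr2 (6.87, 6.36 and 6.89 against 12.1, 11.4 and 12 CPM), Tlr3, Tlr4, Tlr7, Tlr13 and Clec7a, the beta-glucan receptor dectin-1, in the 12-library fit alone. Of 26 integrin genes 7 rose, and 6 of these are leukocyte chains (Itgae, Itgal, Itgam, Itgax, Itgb2 and Itgb7). The remaining call was Itgb8, a chain that activates latent TGF-beta (0.95 ± 0.21). Growth factors and receptors of leukocytes had 7 of 44 higher and 1 lower (Il16, -0.34). Csf1, the growth factor of macrophages, rose in both fits at 33.5, 34.2 and 37.9 against 48.1, 46.2 and 45.5 CPM (0.40 ± 0.07), and the receptor chains Csf2ra (0.37 ± 0.09) and Csf2rb (0.52 ± 0.10) in the 12-library fit. Il33, the ligand of Il1rl1, lay above Control in 3 of 3 libraries without passing (0.43, adjusted p = 0.103).

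**Figure D3:**
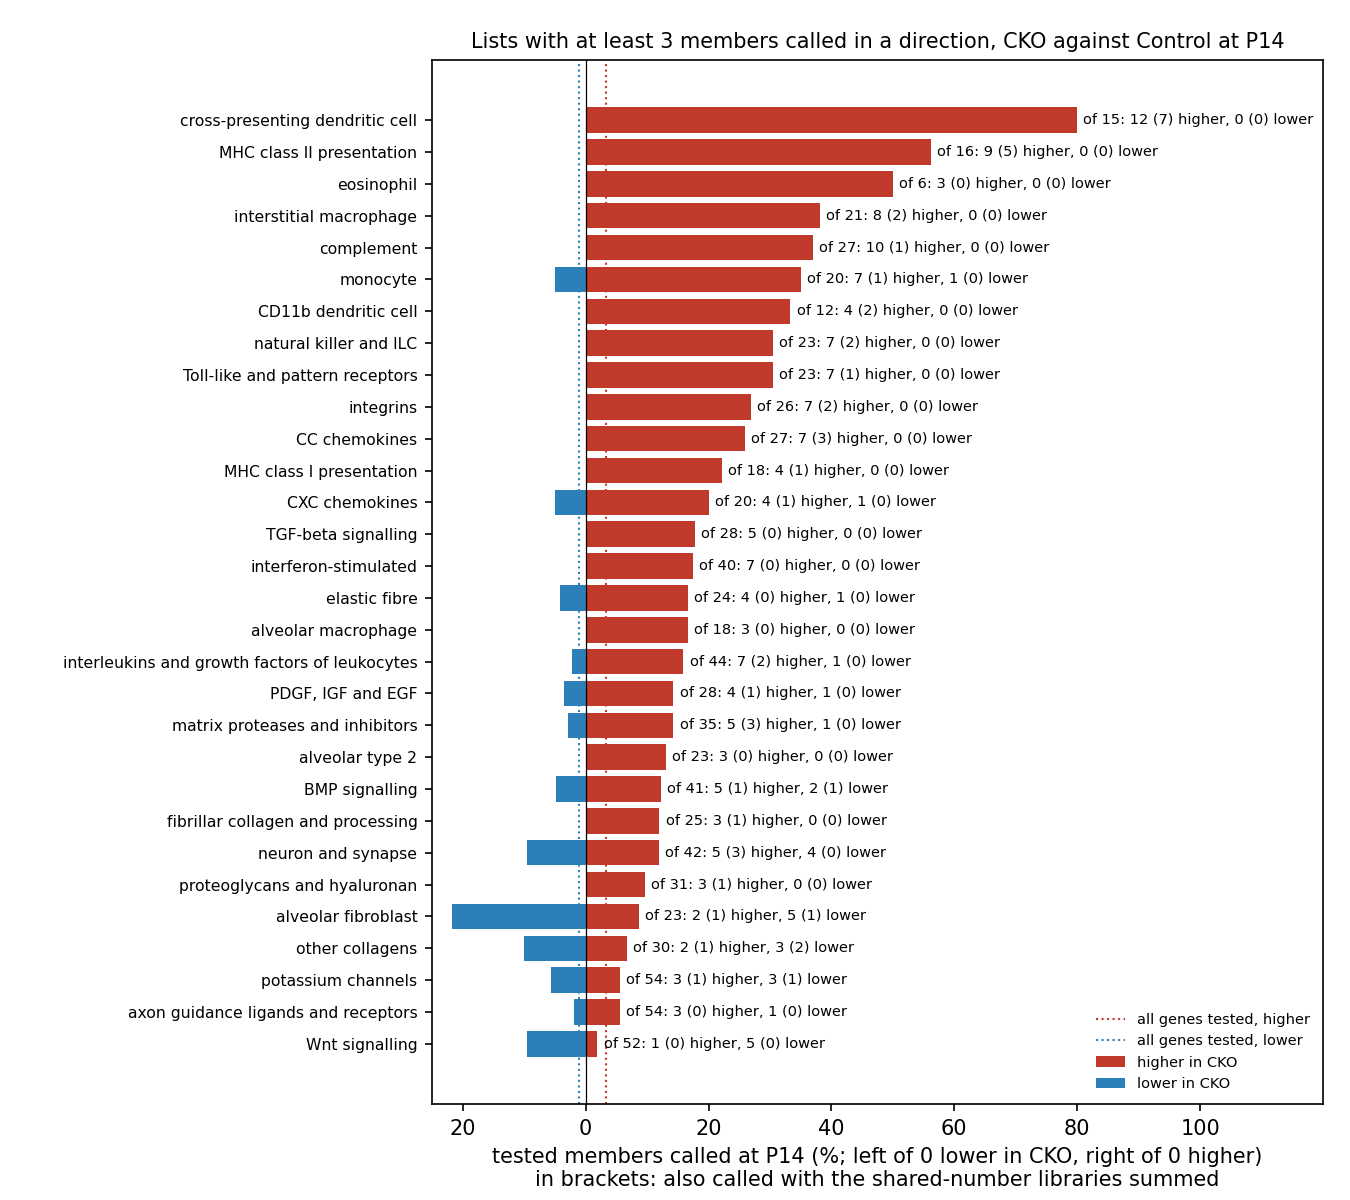
Share of tested members called higher (red, to the right) or lower (blue, to the left) in CKO at P14 for the 30 lists with at least 3 calls in a direction, with counts beside each bar and, in brackets, those called in both fits. Dotted lines give the shares of all tested genes, 3.33% higher and 1.11% lower. Lists of dendritic cells, class II and other leukocyte genes are at the top, and alveolar fibroblast, Wnt, other collagens, and neuron and synapse lists have the longest blue bars.

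In the mesenchyme, the tissue in which Tbx4 acts, fibroblast markers and matrix genes moved in both directions. Of 20 tested mesenchymal transcription factors 2 rose, both in both fits. Prrx1, a homeobox factor of fibroblasts, measured 41.6, 49.0 and 44.7 CPM in Control and 85.4, 74.9 and 82.1 CPM in CKO (0.84 ± 0.11, adjusted p = 0.00246, summed 0.0281). Tcf21, a factor of lipid-storing alveolar fibroblasts, had 91.0, 51.7 and 81.5 CPM against 57.8, 49.6 and 49.6 CPM (-0.51, adjusted p = 0.119), and Foxf1 a log2 fold change of -0.21 (adjusted p = 0.445). CKO replicate 1 was not apart from the other CKO libraries in Prrx1, in contrast to H2-Aa, Xcr1 and Clec9a but as in Ptprc and Tlr2.

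Alveolar fibroblast markers were the list with the highest share of falls: 5 of 23 fell, where 1.11% of all genes did, and 2 rose. Scube2, a secreted protein that helps release Hedgehog ligands, measured 261, 187 and 242 CPM in Control and 112, 67.8 and 64.8 CPM in CKO (-1.50 ± 0.19, adjusted p = 0.00269, summed 0.036). The other falls, in the 12-library fit alone, were Slc7a10, an amino acid transporter (-1.18 ± 0.20), Npnt, a basement membrane ligand of integrin alpha 8 (-0.78 ± 0.19), Mfap4, a protein of elastic fibres (-1.11 ± 0.26), and Nebl (-0.29 ± 0.07). Mfap4 had the largest fall in level of all named genes, from 3660, 2198 and 3452 CPM to 1998, 1153 and 1161 CPM. Its groups did not overlap, but Control replicate 2 came close to CKO replicate 1. Inmt, a methyltransferase of the same cells, moved the other way, from 314, 204 and 304 to 524, 713 and 694 CPM (1.23 ± 0.20), as did Rarres2 (chemerin), which draws dendritic and NK cells (0.76 ± 0.11, in both fits). Of 20 alveolar myofibroblast genes Aspn (298, 194 and 244 against 490, 489 and 555 CPM, 1.06 ± 0.14) and Igf1 rose in both fits. Pdgfra, the receptor that marks the progenitors of these cells, was lower in 3 of 3 libraries without passing (-0.48, adjusted p = 0.124). Of 20 adventitial fibroblast genes Ccl11 and Gsn rose in both fits, Gsn, an actin-severing protein, from 706, 696 and 910 to 1215, 1580 and 1523 CPM (0.90 ± 0.13). Smooth muscle (1 of 18 higher, Cald1) and pericytes (1 of 15 higher, Abcc9) had 1 call each, where 3.33% of all genes rose. Acta2 (-0.29, adjusted p = 0.611), Myh11 (-0.33, adjusted p = 0.552) and Postn (-0.02, adjusted p = 0.967) overlapped between the groups.

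Elastic fibre genes had 4 of 24 higher and 1 lower, none in both fits, and 14 of the 24 lay above Control without overlap, against 13.1% of all genes. The core protein Eln measured 5060, 3803 and 4413 CPM in Control and 5872, 6037 and 5799 CPM in CKO and did not pass the test (0.42 ± 0.23, adjusted p = 0.371). The crosslinking enzymes Loxl1 (130, 95.5 and 115 against 174, 184 and 169 CPM, 0.63 ± 0.12) and Loxl2 (0.45 ± 0.10), the fibulin Fbln5 (0.65 ± 0.16) and Ltbp4, which anchors latent TGF-beta on the fibres (0.38 ± 0.09), rose in the 12-library fit, against the fall of Mfap4. Among fibrillar collagens and their processing 3 of 25 rose. Adamts2, which trims procollagen (chr11:50602085-50807573), had means of 223 ± 8.17 and 358 ± 11.7 CPM (0.68 ± 0.06, adjusted p = 0.000223, in both fits), with libraries at 226, 214 and 229 and at 344, 365 and 364 CPM. Col5a2 (0.51 ± 0.09) and Adamts3 (1.04 ± 0.22) rose in the 12-library fit, while Col1a1 overlapped (-0.20, adjusted p = 0.7) and Col3a1 was above Control in 3 of 3 libraries without passing (0.31, adjusted p = 0.214).

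Other collagens split, with 2 of 30 higher and 3 lower. Col23a1, a transmembrane collagen, fell in both fits from 103, 103 and 118 to 36.9, 28.5 and 30.5 CPM (-1.76 ± 0.16, adjusted p = 0.000348, summed 0.0107). Col17a1, a transmembrane collagen of epithelial attachment, fell in both fits as well (6.96, 5.47 and 5.52 against 2.93, 1.62 and 2.03 CPM, -1.45 ± 0.20), and Col6a4 in the 12-library fit (-2.14 ± 0.39). Col8a1, a short-chain collagen, rose in both fits from 6.25, 5.82 and 6.63 to 15.1, 17.1 and 17.3 CPM (1.40 ± 0.20). Among matrix proteases Mmp2, gelatinase A (280, 224 and 295 against 466, 467 and 472 CPM, 0.82 ± 0.11), and Mmp19 (0.70 ± 0.10) rose in both fits, and their inhibitors Timp3 (901, 947 and 1149 against 1463, 1922 and 1993 CPM, 0.84 ± 0.14) and Reck (0.41 ± 0.08) in the 12-library fit. The small leucine-rich proteoglycans Prelp (1.22 ± 0.21) and Fmod (1.01 ± 0.20) and the laminin chain Lama2 (0.74 ± 0.11) rose there too. Fn1, fibronectin, fell from 2871, 2006 and 2827 CPM to 1803, 1434 and 1456 CPM (-0.72 ± 0.16, adjusted p = 0.0311, summed 0.199), and it also counts as the fall among the monocyte genes. C1qtnf3, a secreted C1q-like protein of mesenchyme, rose in both fits from 4.5, 4.88 and 5.57 to 20.6, 24.0 and 24.9 CPM (2.22 ± 0.20).

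**Figure D4:**
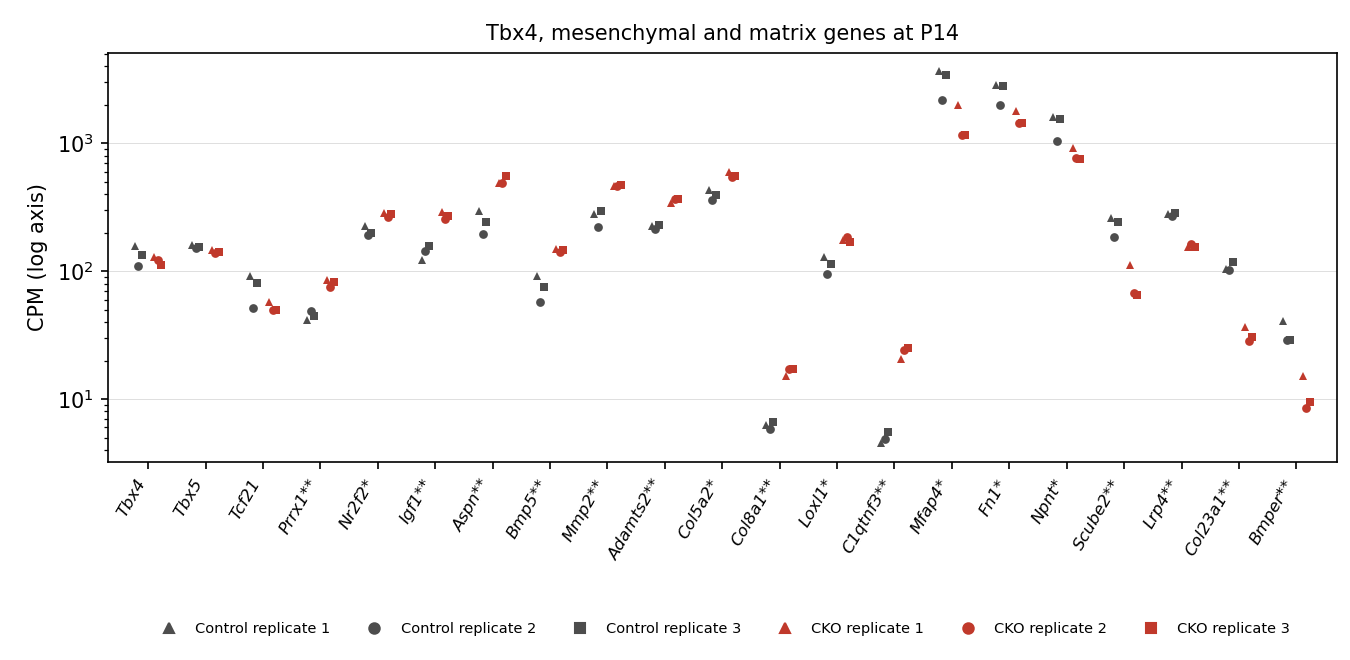
Level in CPM (log axis) of Tbx4, Tbx5, Tcf21 and 18 mesenchymal and matrix genes that rose or fell in each P14 library, Control in grey and CKO in red, with a symbol for each replicate. An asterisk marks a call in the 12-library fit and 2 asterisks a call in both fits. Tbx4 overlaps between the groups, while Prrx1 and C1qtnf3 stand above and Col23a1 and Bmper below Control in all 3 CKO libraries.

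The signalling pathways of lung mesenchyme had some members called, with rises and falls, where 3.33% of all genes rose and 1.11% fell. In the BMP pathway, which restrains growth of vessel walls and is the pathway most often affected in heritable pulmonary hypertension, 5 of 41 rose and 2 fell. The ligands Bmp5 (92.1, 57.1 and 75.7 against 149, 141 and 148 CPM, 0.96 ± 0.14, in both fits), Bmp2 (1.0 ± 0.16) and Bmp4 (0.44 ± 0.08) rose, as did the target Id2 (0.39 ± 0.09). Bmper, a secreted BMP modulator, fell in both fits from 40.9, 28.9 and 29.2 to 15.1, 8.46 and 9.44 CPM (-1.59 ± 0.20), and the transducer Smad9 fell (-0.36 ± 0.09) in the 12-library fit. None of the 8 receptors was called, and Bmpr2 lay at 2800, 2102 and 2628 CPM against 2867, 2669 and 2917 CPM (0.17, adjusted p = 0.538). TGF-beta genes had 5 of 28 higher, none in both fits: the ligand Tgfb3 (54.7, 40.9 and 45.5 against 91.3, 82.0 and 77.4 CPM, 0.83 ± 0.18), the receptor Tgfbr1 (0.35 ± 0.07), Ltbp4, Itgb8 and the target Ctgf (0.65 ± 0.16). Tgfb1 overlapped (-0.01).

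Of 52 Wnt genes 5 fell and 1 rose, none in both fits, and 2 to 6 fell when 1 library was left out. Over all tested genes 1.11% fell and 3.33% rose. Over the whole list 31 log2 fold changes were positive and 21 negative, with a median of 0.03. The falls were the ligands Wnt3a (-0.62 ± 0.16) and Wnt10b (-1.14 ± 0.22), the R-spondin Rspo4 (15.1, 11.3 and 11.4 against 4.22, 1.05 and 1.51 CPM, -2.49 ± 0.39), its receptor Lgr5 (-2.21 ± 0.47) and the Wnt-inactivating enzyme Notum (-1.34 ± 0.20). Dkk3 rose (0.62 ± 0.11), and Axin2, the usual readout of the pathway, measured 70.9, 63.8 and 67.6 against 72.8, 65.2 and 64.3 CPM (0.00 ± 0.17). Lrp4, a receptor on which Wnt inhibitors and agrin bind, fell in both fits from 279, 271 and 286 to 155, 164 and 156 CPM (-0.82 ± 0.08, adjusted p = 0.00041). In the Hedgehog list of 20 Scube2 was the one call, with Shh at -0.50 (adjusted p = 0.0978), Gli1 at 0.61 (adjusted p = 0.16) and Ptch1 at 0.05 (adjusted p = 0.871). Of the FGF list Fgf7 (0.59 ± 0.14) and Fgfr2 (0.35 ± 0.09) rose, and Fgf10 overlapped (0.14, adjusted p = 0.7). Igf1, a growth factor of alveolar septation, rose in both fits from 121, 143 and 156 to 290, 256 and 271 CPM (0.96 ± 0.13), and its binding proteins Igfbp3 (1.52 ± 0.28), Igfbp6 (1.44 ± 0.32) and Igfbp7 (0.47 ± 0.10) rose in the 12-library fit. The EGF ligand Hbegf (-0.68 ± 0.17), the Notch ligand Dll1 (-0.55 ± 0.12) and the retinoid carrier Crabp1 (35.1, 17.2 and 22.4 against 5.46, 2.01 and 1.72 CPM, -3.04 ± 0.59) fell there.

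The series title names pulmonary hypertension among its questions, and the calls of vessel genes at P14 are given here. Over all tested genes 3.33% rose and 1.11% fell. Of 23 tested pulmonary hypertension genes Smad9 alone was called. Eng (0.04), Acvrl1 (-0.07), Sox17 (-0.04), Kdr (-0.13) and Kcnk3 (-0.20) had adjusted p between 0.459 and 0.923. None of 18 pan-endothelial and none of 10 general capillary markers was called, and Pecam1 measured 632, 500 and 625 against 563, 597 and 612 CPM (0.01, adjusted p = 0.973). Venous markers had 2 of 10 higher, Nr2f2 (0.43 ± 0.07) and Car8 (0.61 ± 0.10), and lymphatic markers 2 of 10, Mmrn1 (0.63 ± 0.11) and Thy1 (0.86 ± 0.19), none in both fits. Aerocyte capillary and arterial markers had 1 of 12 higher each, neither in both fits. Of 41 vasoactive signalling genes Ptger4, a prostaglandin E2 receptor, rose in both fits (5.64, 8.88 and 7.57 against 14.9, 19.8 and 19.9 CPM, 1.31 ± 0.19), and Vipr2, a receptor of the vasodilator VIP (-1.48 ± 0.28), and Nos2 (-0.70 ± 0.17) fell in the 12-library fit. Edn1 was above Control in 3 of 3 libraries (0.65, adjusted p = 0.105) and Nos3 below (-0.53, adjusted p = 0.119), neither past the test.

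Genes best known from neurons moved in both directions, 5 of 42 tested higher and 4 lower, where 3.33% of all genes rose and 1.11% fell. With 1 P14 library left out 4 to 6 of them rose and 1 to 5 fell. Dcx, a microtubule protein of migrating neurons (chrX:143855842-143933219), had 1.89, 1.18 and 1.58 CPM in Control and 21.2, 22.6 and 28.8 CPM in CKO, means of 1.55 ± 0.356 and 24.2 ± 4.04 CPM (3.96 ± 0.33, adjusted p = 0.000223, summed 0.00939). Otof, a calcium sensor of vesicle release (3.16 ± 0.26), and Lrrtm3, a synaptic adhesion protein (3.33 ± 0.41, 0.105 to 0.690 against 3.66 to 4.59 CPM), rose in both fits, and Cntn4 (1.88 ± 0.32) in the 12-library fit. Cntn1 (-2.05 ± 0.33), Syt6 (-3.02 ± 0.57), Syt9 (-1.01 ± 0.25) and Gap43 (-1.66 ± 0.33) fell. None of 15 tested Schwann cell markers and none of 10 tested neuroendocrine markers was called. Among 54 potassium channel genes 3 rose and 3 fell, with Kcnn3 (17.6, 13.8 and 17.5 against 30.7, 32.5 and 30.4 CPM, 0.94 ± 0.13) and Kcna2 (81.1, 87.6 and 97.7 against 42.1, 37.6 and 42.1 CPM, -1.13 ± 0.16) in both fits. Of 46 other channel genes Ano5 (9.85, 4.44 and 6.31 against 51.3, 35.9 and 37.0 CPM, 2.59 ± 0.33) and the calcium channel subunit Cacna2d1 (0.40 ± 0.05) rose in both fits. Rises made up 5.56% of the potassium channel genes and 4.35% of the other channel genes, near the share of all genes. Gria1, an AMPA receptor subunit, fell in both fits from 98.7, 104 and 100 to 58.5, 53.2 and 54.4 CPM (-0.87 ± 0.11), as did the sodium channel Scn8a (6.73, 10.4 and 7.83 against 3.32, 2.58 and 1.88 CPM, -1.68 ± 0.23).

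Further genes with the smallest p in the summed fit belong to none of these groups. Pde1a, a calmodulin-dependent phosphodiesterase, rose from 10.1, 10.3 and 11.3 to 22.6, 24.4 and 23.5 CPM (1.16 ± 0.08), and Arsb, a lysosomal sulfatase, from 36.2, 36.1 and 39.8 to 64.7, 68.4 and 75.6 CPM (0.90 ± 0.08). Peg3, an imprinted zinc finger gene, fell from 235, 233 and 226 to 151, 159 and 160 CPM (-0.56 ± 0.06). Tbc1d1, a regulator of glucose transporter traffic (-0.50 ± 0.06), the lipid transfer protein Esyt3 (-1.16 ± 0.14), Eepd1 (-0.83 ± 0.13) and the ephrin receptor Epha1 (-1.07 ± 0.14) fell as well. Of the genes with large differences in level, Picalm, an adaptor of endocytosis, rose (0.44 ± 0.07), and Pdzd2 (1197, 999 and 1169 against 770, 610 and 617 CPM, -0.75 ± 0.15), the cadherin Fat3 (-1.29 ± 0.22) and the protocadherin Pcdh18 (-1.0 ± 0.23) fell in the 12-library fit. Whether the counting used strand is not given, so reads of Peg3, Epha1, Rarres2, Slc7a10, Igfbp7, Ppt1, Mmp19, Abcc9, Bmp4, Scpep1, Syt6, Gbp2, Ccl27a, Cadm1, Nos3, Kcnk3, Eng, Gli1, Shh and Xist, whose exons overlap a gene on the opposite strand, may include those of the partner. H2-D1, Tgtp2 and Ly6c2 have near-identical copies and are uncertain for that reason.

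Epithelial lists had 3 calls in all. Of 23 alveolar type 2 genes, whose cells make surfactant, 3 rose in the 12-library fit: Sftpa1 (776, 541 and 730 against 1094, 1091 and 1116 CPM, 0.69 ± 0.15), Lyz2 (1041, 833 and 948 against 1495, 1789 and 1740 CPM, 0.83 ± 0.14), which macrophages also make, and Chil1 (0.51 ± 0.11). In all 15 of the 23 lay above Control without overlap, against 13.1% of all genes. Without CKO replicate 2, CKO replicate 3 or Control replicate 2, 1 member rose. The list median was 0.41 at P14 and -0.29 at P36. Sftpc was one of those that did not pass (3549, 2326 and 3103 against 4155, 3970 and 3907 CPM, adjusted p = 0.21). None of 18 alveolar type 1, 16 ciliated and 16 club cell markers was called. All 16 ciliated cell genes had negative values, 9 of them below Control without overlap (11% of all genes), with a median of -0.76, and all 16 club cell genes were negative with a median of -0.48. Of the club cell genes 2 lay below Control without overlap, and 0 had an unadjusted p under 0.05 (edgeR). Their mean log2 level, relative to the mean of the 6 P14 libraries, was uneven in Control: -1.36, 1.58 and 1.07 in replicates 1, 2 and 3. In CKO replicates 1, 2 and 3 it was -0.71, -0.32 and -0.27, above Control replicate 1.

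Control libraries differed in their levels of airway and heart marker RNA. The summed level of 15 tested cardiac genes was 395.5, 5872 and 3935 CPM in Control replicates 1, 2 and 3 and 1126, 1624 and 1659 CPM in CKO. Ciliated cell genes summed to 486.7, 976.0 and 728.3 CPM against 449.1 to 453.6 CPM, and skeletal muscle genes to 11.3, 57.2 and 44.8 against 19.2 to 22.8 CPM. CKO replicate 1 had the highest sum of red cell genes (135.5 CPM, others 38.4 to 92.4). Adipose genes summed to 135.4, 245.1 and 207.8 CPM in Control and 137.5, 174.8 and 169.0 CPM in CKO (replicates 1, 2 and 3). Of 12 tested adipose genes 1 fell, in both fits, and their median log2 fold change was -0.75. None of the cardiac, ciliated or red cell members was called, and the part of these differences in the results above was not tested. Mfap4, Fn1, Npnt and Scube2 had their lowest Control value in replicate 2, the library with the most cardiac and ciliated RNA. Lists of cell state had 0 calls among 38 cell cycle genes, 31 genes of oxidative phosphorylation, 25 of hypoxia and glycolysis, 23 of cholesterol synthesis and 18 of the unfolded protein response. Mki67 had a log2 fold change of -0.08 (adjusted p = 0.742) and Top2a of -0.01.

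Around the targeted gene, 119 tested genes lay within 5 Mb of Tbx4 on chromosome 11, of which 6 rose and none fell, a share of 5.04% against 4.45% of all genes. They were Ccl5, Ccl6, Ccl11, Rnft1 (0.37 ± 0.07), Dhx40 (0.28 ± 0.07) and Scpep1 (0.44 ± 0.10), with Ccl11, 3.83 Mb away, the one that passed in both fits.

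P14 values were set beside those of the P36 libraries, which share no library with the P14 comparison but share its estimate of spread. Of the 708 genes called at P14, 458 (64.7%) had the same sign of log2 fold change at P36 and 91 were called in the same direction there, where 42.4% of all tested genes had the same sign and 2.33% were called at P36 (1.49% higher and 0.842% lower). Of the 128 called in both P14 fits 106 (82.8%) had the same sign and 38 were called in the same direction. Several mesenchymal and neuronal genes had like values at both ages: Dcx 3.96 and 3.74, Ccl11 3.01 and 3.51, C1qtnf3 2.22 and 2.32, Prrx1 0.84 and 0.79, Igf1 0.96 and 0.90, Aspn 1.06 and 1.10, Mmp2 0.82 and 0.99, Adamts2 0.68 and 0.91, Bmper -1.59 and -1.41 and Gria1 -0.87 and -0.89 at P14 and P36, all called at both ages in the 12-library fit. Control replicates 1 and 3 at P36 also share a library number (coefficient of variation 2.02%), and with such libraries summed Prrx1 (adjusted p = 0.0513) and Igf1 (adjusted p = 0.0707) were not called at P36 by edgeR while the other 8 were. Several leukocyte genes had smaller values at P36: H2-Aa 1.32 and 0.17, Clec9a 2.35 and 0.69, Ccr2 1.63 and 0.38, Itgax 0.96 and -0.00 and Ptprc 0.54 and -0.16, none called at P36. Other members of the cross-presenting dendritic cell list lay between, with a list median of 1.83 at P14 and 0.53 at P36, Cd207 at 2.66 and 1.17, and Ppt1 called at both ages (0.41 and 0.39). Outside the leukocyte genes, Inmt (1.23 and -0.35), Timp3 (0.84 and -0.04) and Scn8a (-1.68 and 0.04) were not called at P36 either. Otof was called at both ages, at 3.16 and 1.91. The genes compared here were picked with the values of both ages known, so they do not describe whole cell types. H2-Aa, Clec9a, Ccr2, Itgax and Ptprc each differed between the ages by the interaction test (adjusted p = 0.0436, 0.0371, 0.0122, 0.0375 and 0.0212 by edgeR). So did 1.61% of all genes, but 118 of the 531 that rose at P14 and 21 of the 177 that fell. The 5 genes had been called at P14, and the interaction holds the same P14 difference, which favours a larger value at P14. With libraries of a shared number summed, none of the 5 differences passed (adjusted p = 0.277, 0.272, 0.256, 0.272 and 0.256 by edgeR), so their calls depend on counting those libraries apart. The differences themselves were 1.16, 1.65, 1.25, 0.96 and 0.70 in the 12-library fit and 1.05, 1.48, 1.18, 0.90 and 0.72 in the summed fit. The P36 groups also differ in sex, with Xist at a log2 fold change of -11.32 at P36 and -0.06 at P14, and the part of this in the difference between ages was not tested.

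**Figure D5:**
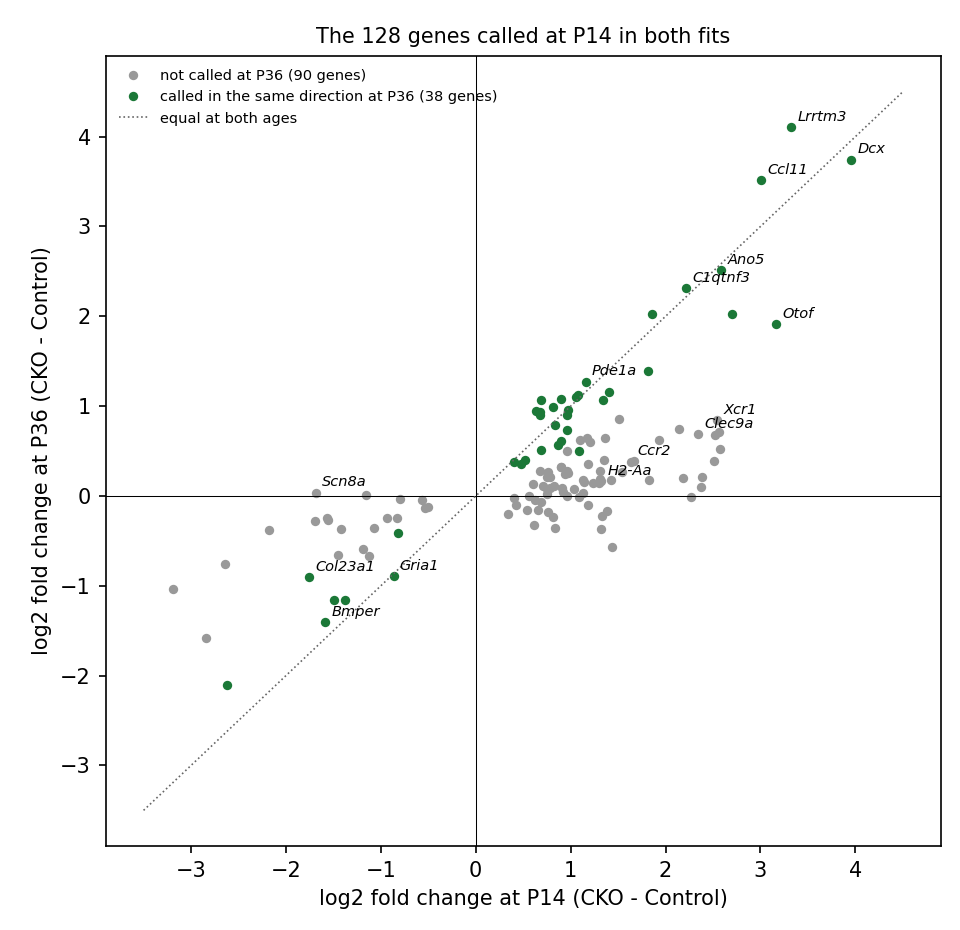
Log2 fold change (CKO minus Control) at P14 on the horizontal axis and at P36 on the vertical axis for the 128 genes called at P14 in both fits, with 38 called in the same direction at P36 in green and the rest in grey. The dotted line marks equal values. Dcx, Ccl11 and C1qtnf3 lie near it, and Xcr1, Clec9a, Ccr2 and H2-Aa lie well under it.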

How the data were processed

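RNA from whole lungs was sequenced in 12 libraries, of which the 6 from P14 are compared here. Per the labels' protocols RNA was isolated with miRNeasy columns and libraries were made with the KAPA RNA HyperPrep kit. The deposited raw counts per gene come from reads aligned with STAR to mm10 and counted with featureCounts, per the submitters' processing notes. Not given in the sources used here are the versions of these tools and the strand setting. The deposited log2 table of the authors served one alternative (limma trend).

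Counts were filtered with filterByExpr by group (minimum count 10), scaled by TMM, and fitted with edgeR 4.0.16 (R 4.3.3) as 1 quasi-likelihood model of all 12 libraries with 4 groups, with robust dispersion. The contrast was CKO minus Control at P14, with Benjamini-Hochberg adjustment over 15923 genes and a threshold of 0.05. Standard errors are the log2 fold change divided by the square root of F. The summed fit repeated this on 10 libraries after adding libraries of a shared number. The interaction of genotype and age came from the same model. Alternatives used limma 3.58.1 and DESeq2 1.42.0, other filters and scalings, and fits without 1 library. The procedure was tested on simulated counts.

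Genes named are the 12 rises and 12 falls with the smallest p in the summed fit among genes past both fits that average 5 CPM or more in the higher group and do not overlap, the 10 rises and 10 falls with the largest CPM difference, called members of 78 gene lists, defining genes of the lists, T-box genes, CC ligands, and called genes within 5 Mb of Tbx4. The comparison, the members and the lists were chosen with earlier results of these data known. Replicate numbers did not pair the libraries. Depth of 17806206 to 21368801 counts limits precision for genes with few counts. Some genes that the rule selects are not reported here.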

Additional observations from a re-analysis of the deposited data

Results flagged for a closer look

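For 41 of the genes named in the report the log2 fold change at P14 differed from that at P36 by edgeR's test of the interaction of genotype and age (adjusted p under 0.05, 1.61% of all tested genes). Among genes called at P14, 118 of the 531 that rose and 21 of the 177 that fell did so. Named genes were largely chosen for P14 calls, and the interaction holds the same P14 difference, which favours a larger value at P14. The values below are the log2 fold change at P14 minus that at P36. Sex partly follows genotype at P36, and its part in these differences was not tested. With libraries of a shared number summed, a test chosen after seeing the data, edgeR called none of the 41 nor any other of 16068 genes. All 41 kept their sign and had an unadjusted p under 0.05 (2028 genes did), with adjusted p between 0.256 and 0.304.

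Genes of antigen presentation and dendritic cells had values above 0: H2-Aa 1.16, H2-Ab1 1.25, H2-DMa 0.95, H2-Ob 0.83, Psmb9 1.05, Xcr1 1.70, Clec9a 1.65, Gcsam 1.85, Itgax 0.96, Mgl2 1.10 and Havcr2 1.64. So did genes of monocytes, macrophages and other leukocytes: Ccr2 1.25, Ccr1 1.45, Ptprc 0.70, Itgb2 0.82, Chil3 1.93, Siglecf 1.08, Mrc1 0.87, Lyz2 1.10, Clec7a 0.94, Tlr2 1.02, Tlr7 0.98, Klrb1c 1.54, Rora 0.49 and Csf1 0.43, and the interferon-induced GTPases Gbp5 0.98 and Iigp1 1.24.

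Among mesenchymal, epithelial and other genes the values were Ctgf 1.54, Rarres2 0.94, Inmt 1.59, Timp3 0.88, Gpm6a 1.48, a gene of mesothelium, Sftpa1 1.21, Chil1 0.81, Car8 0.66, Cdkn1b 0.52, a cell cycle inhibitor, and Arsb 0.57. Below 0 were Esyt3 -1.16, Peg3 -0.52, Scn8a -1.72 and Tbc1d1 -0.38, genes that fell at P14.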

How the results depend on the processing

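Against 531 genes higher and 177 lower, DESeq2 gave 829 and 276, a test against a fold of 1.2 gave 187 and 66, summing libraries of a shared number 101 and 27, and summing with the P14 libraries alone 17 and 7. Leaving out 1 P14 library gave 184 to 533 higher and 47 to 222 lower. Counts within 1.5 times of the main ones came from no filter, a filter of 1 CPM, other scalings, voom, limma trend, no robust option and the 6 P14 libraries alone (374 and 132). The 128 calls of the summed fit became 24 with P14 libraries alone, 518 with DESeq2 and 2 to 150 without 1 library. The 256 genes whose effect differed between ages became 0 with shared numbers summed (2028 at an unadjusted p under 0.05, edgeR). Without CKO replicate 3 of P36, an alternative chosen after seeing the data, 596 rose and 221 fell.

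Of 205 named genes called, none changed direction under any of these. As they were chosen for calls in the same libraries, a change of direction was unlikely beforehand. When shared numbers were summed 59 passed, and with the P14 libraries alone summed 16 did. With the replicate block 496 rose and 168 fell. Own-number correlations of deviations were 0.198, 0.111 and 0.085, and Control replicate 3 correlated best with CKO replicate 2 (0.112), so the numbers were not used as pairs. With 3 libraries a group, genes of few counts, such as Batf3, have wide errors.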

Other observations

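The genes and clusters below were chosen after their values were seen. Several genes outside the lists passed in both fits. Lepr, the leptin receptor, measured 237, 177 and 226 CPM in Control and 334, 379 and 391 CPM in CKO, and Nox4, an oxidase that makes hydrogen peroxide, 85.3, 63.2 and 75.9 against 126, 129 and 144 CPM. The groups were apart in both. Itih5, which binds hyaluronan (log2 fold change 0.90), Nbl1, a BMP antagonist (0.96), Sdk2, a cell adhesion protein (1.34), and Cldn1, a tight junction protein (1.51), rose as well. Unc80, part of a sodium leak channel, went from 22.3, 18.3 and 17.8 CPM to 4.11, 1.58 and 2.50 CPM (-2.84), and the phosphatase Ptprt (-2.17), the glutamate transporter Slc1a2 (-1.38) and the sodium channel Scn4a (-1.70) fell too.

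Leukocyte receptor clusters held several calls, where 3.33% of all genes rose. Their members were taken by receptor family names, so other genes within the coordinates are not counted. In the Slamf cluster (mm10 chr1:171559193-172590568) 6 of 9 tested genes rose, Cd48, Cd84 and Slamf7 in both fits and Cd244, Slamf8 and Slamf9 in the 12-library fit, with Ly9, Slamf1 and Slamf6 not called. In the natural killer gene complex (chr6:128609227-131247362) 8 of 29 tested genes rose, with Klrb1b, Klrb1c, Clec12a and Clec9a in both fits and Clec7a, Klrd1, Klrk1 and Klrc3 in the 12-library fit.

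In the 300 bases around each start, searched on both strands, the T-box letters AGGTGTGA were in 1.14% of all tested promoters, 1.25% of those of genes that rose and 3.10% of those of genes that fell (4 of 129). A pair of GAAA separated by 2 bases, as in interferon response elements, was in 3.81% of all and 8% of promoters of genes that rose (32 of 400). It was in 5.43% of those of genes that fell (7 of 129). GGAA and GAAA separated by 2 bases, as bound by ETS and IRF factors together, were in 2.92% of all, 5.25% of those that rose and 0.775% of those that fell (1 of 129). These shares are descriptions and were not tested.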
